A study of Mus musculus with 5 samples.

Results

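Transcripts of the core Hedgehog pathway were followed in dorsal pancreatic buds of mouse embryos that lacked Ptf1a, a transcription factor required for pancreas formation, and in heterozygous buds. The genes taken were the ligands Shh, Ihh and Dhh, the receptor Ptch1, the transducer Smo, the secreted-ligand antagonist Hhip and the transcription factors Gli1, Gli2 and Gli3. All probe sets annotated to exactly 1 of these 9 symbols were used, which gave 9 of the 18194 genes with such a probe set and 21 of the 45037 probe sets tested. There were 3 null arrays and 2 heterozygote arrays, each from a pool of 3 buds at E10.5 (embryonic day) of the strain C57BL/6J. The heterozygotes carry a mutant Ptf1a allele too, and no wild-type buds were analysed here. Mesenchyme had been dissected away mechanically, and the RNA went through 2 rounds of amplification primed at the poly(A) tail. Neither the deleted part of Ptf1a nor the litters behind the pools are stated in the labels, so p-values measure only the spread between these pools, part of which may be technical.

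Hedgehog ligands are secreted proteins made mainly by epithelia. They bind Ptch1 on receiving cells, which releases Smo from inhibition, and Smo then turns the Gli factors towards activation of target genes. Gli1, Ptch1 and Hhip are themselves targets, so their transcripts serve as a readout of the signal, while Ptch1 and Hhip also hold the ligand back. In the mouse gut tube Shh and Ihh are expressed in the endoderm of the stomach and intestine and are kept low in the endoderm that forms the pancreas, and much of the response is in the surrounding mesenchyme. The comparison asks whether the ligand genes and the target genes differed in the same direction between null and heterozygote buds.

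Signal is given as log2 of the deposited linear intensity after quantile normalisation across the 5 arrays. The median deposited intensity was 13.7 to 17.5. On each array a background level was set at the 95th percentile of the array's 27 Bacillus subtilis controls. It lay between 3.03 and 3.29 on the log2 scale. Precision is limited throughout by the number of arrays. The targeted gene, Ptf1a (1419424_at), read 7.10 and 7.33 in the heterozygotes against 5.21, 6.07 and 5.00 in the nulls, so the arrays lay in the order of their labels. It stayed above background on all 3 null arrays, and its log2 change of -1.79 did not pass the test (limma adjusted p = 0.651), which limits what it says of the labels. Of 18 measured genes of bud epithelium, 17 were above background on all 5 arrays, among them Pdx1, Cdh1 and Sox9, and Cpa1 was above it on the heterozygote arrays alone.

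A low Ihh signal was seen above background in the 3 null pools and in neither heterozygote pool, while of the target genes Gli1 and Hhip could be given no direction and the groups of Ptch1 were apart on 1 scale of the 3 used. Ihh had a mean log2 signal of 4.46 ± 0.17 in nulls (SD, n = 3) against 1.26 ± 1.41 in heterozygotes (SD, n = 2). At its brightest probe set Ptch1 was higher in nulls by a log2 change of 0.43, Gli1 had a change of -0.70 with overlapping groups, and Hhip was near background. None of these differences passed the test. Signal above background on some arrays but not all was common, at 8 of the 21 Hedgehog probe sets and 16493 of all 45037. How many of them followed genotype as Ihh did was not counted.

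Limma's untrended fit, with p adjusted over the whole table and a threshold of 0.05, called 0 of the 21 Hedgehog probe sets, and it called 0% of all probe sets tested. The trended fit, in which the variance follows signal level, also called 0 of the 21 against 0.0178% of all. The lowest adjusted p among the 21 was 0.485 in the untrended and 0.817 in the trended fit, both for Ihh. An unadjusted p under 0.05 was found for 4 of the 21 in the untrended fit (1 of Ihh, 1 of Gli2 and 2 of Hhip), where 5.52% of all probe sets had one. In the trended fit it was found for 2 (Ihh and Gli2), against 4.93% of all. Every null array lay above every heterozygote array at 3 Hedgehog probe sets, against 9.9% of all probe sets, and below at 3, against 10.1% of all. The 21 had 11 changes above 0 and 10 below, with a median of 0.059, against a median of -0.0099 over all probe sets.

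**Figure D1:**
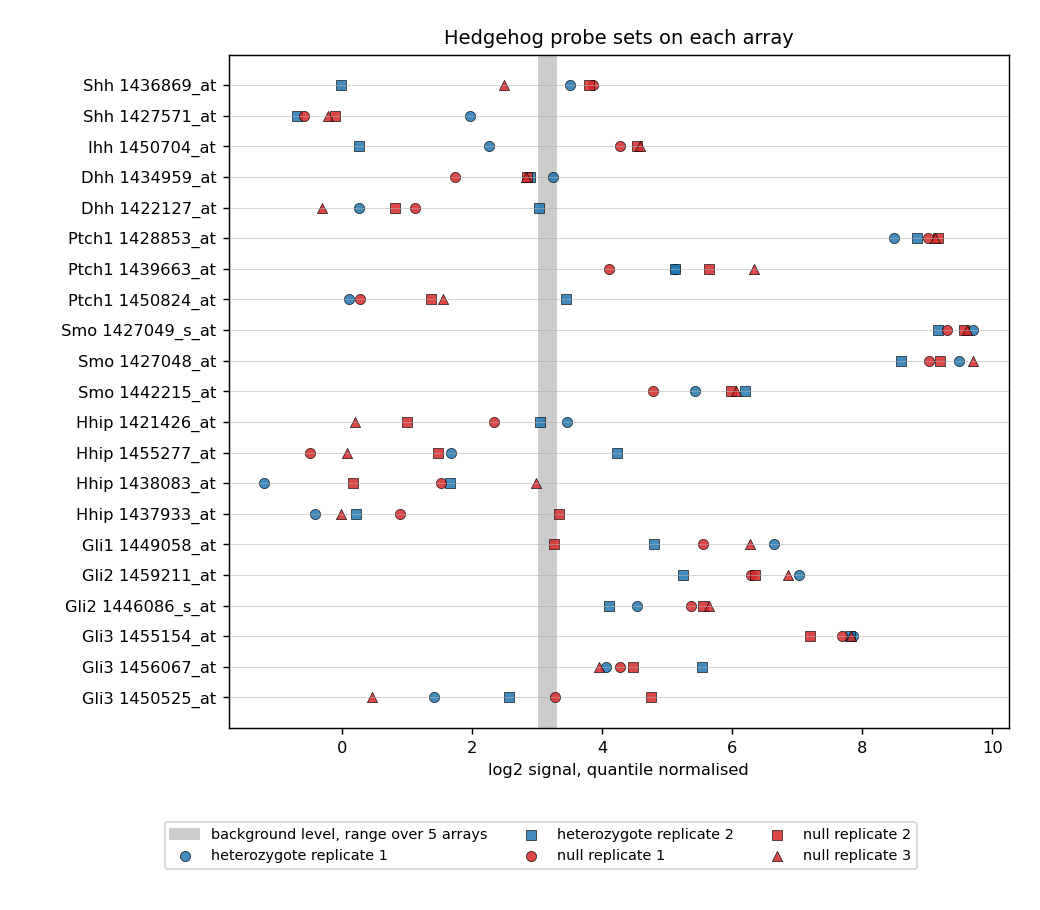
Log2 signal (horizontal axis, quantile normalised) of the 21 Hedgehog probe sets, 1 row each, with 1 point per array: blue for the 2 heterozygote arrays, red for the 3 null arrays, and the shape giving the replicate. The grey band is the range of the background level over the 5 arrays, from 3.03 to 3.29. Points of Smo and of the brightest probe sets of Ptch1 and Gli3 sit far to the right of the band, whereas those of Hhip and of Shh straddle it or lie to its left.

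Ligand transcripts were dim in these buds. Ihh, which encodes Indian hedgehog, a ligand of gut epithelium and cartilage, is measured by probe set 1450704_at. It read 2.25 and 0.26 on the heterozygote arrays (replicates 1 and 2, the order kept below) against 4.27, 4.54 and 4.59 on the nulls (replicates 1 to 3). The null arrays lay close together and above both heterozygote arrays, which were below background. On the deposited linear scale the same arrays read 5.24 and 1.11 against 20.5, 19.6 and 24.8.

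The fitted log2 change of Ihh was 3.21 (SE 0.67, 95% interval 1.47 to 4.94, limma adjusted p = 0.485, unadjusted p = 0.00525). Because the heterozygote signal is only known to be at or below background, the fold is given as a bound, the null mean against the higher of background and measured value on each heterozygote array. By that rule Ihh was at least 2.46-fold higher in nulls. The null range was 0.31 and the heterozygote range 1.99, so the change exceeded the range within each group, as it did at 4 of the 21 probe sets and at 10.1% of all. Groups were also apart on the deposited scale and after median centring. Without heterozygote replicate 2 the change was 2.21, and limma adjusted p lay between 0.378 and 0.667 over the 5 fits that each left out 1 array. With an offset of 16 added before the logarithm it was 1.01.

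Shh encodes Sonic hedgehog, the ligand best known from notochord, floor plate and gut endoderm. Its brighter probe set 1436869_at read 3.50 and -0.015 on the heterozygote arrays and 3.86, 3.80 and 2.49 on the null arrays. Heterozygote replicate 2 lay far below the other 4 arrays, and heterozygote replicate 1 lay within the null range. Heterozygote replicate 2 also had the highest background level, 3.29, and the fewest probe sets above background. They were 60.88% of all there, against 62.99% to 65.15% on the other arrays. The change therefore went from 3.40 without heterozygote replicate 1 to -0.12 without heterozygote replicate 2. Its fitted value was 1.64 (SE 1.16, 95% interval -1.37 to 4.65, limma adjusted p = 0.991).

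The other Shh probe set, 1427571_at, was at or below background on every array, at 1.96 and -0.70 in heterozygotes and -0.59, -0.11 and -0.22 in nulls. It gives no measure of the gene in these pools. Dhh, the desert hedgehog ligand known from testis and nerve sheath, was near background too. Its probe set 1434959_at read 3.24 and 2.88 in heterozygotes and 1.73, 2.84 and 2.82 in nulls, and 1422127_at was above background on no array. The null arrays were the lower ones at 1434959_at, but after median centring or on the deposited scale the groups overlapped.

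**Figure D2:**
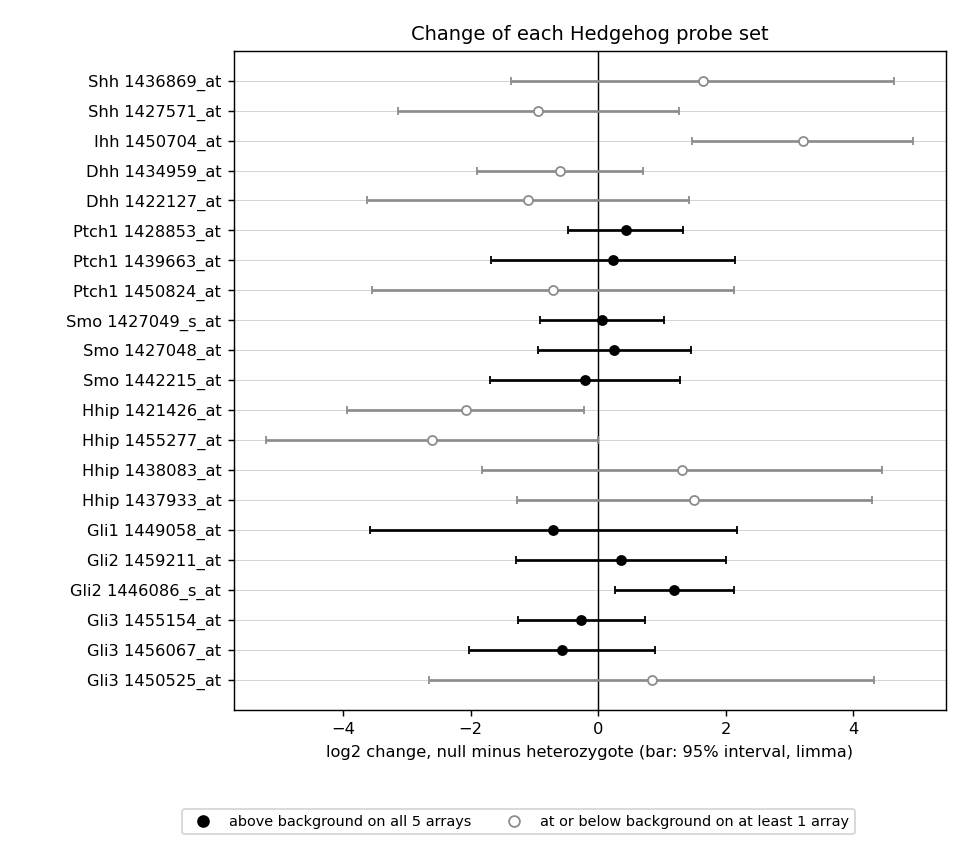
Log2 change (null minus heterozygote, horizontal axis) of each of the 21 Hedgehog probe sets with its 95% interval from limma. Filled points are probe sets above background on all 5 arrays and open points those at or below it on at least 1. The interval lies above 0 for Ihh and for Gli2 1446086_s_at and below 0 for Hhip 1421426_at and 1455277_at, and no probe set passed adjustment.

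Among receptors, Ptch1 and Smo were bright. Ptch1, the ligand receptor and a direct target of the pathway, has 3 probe sets. The brightest, 1428853_at, read 8.48 and 8.85 in heterozygotes and 9.01, 9.17 and 9.11 in nulls. All null arrays were above the heterozygote arrays on this scale, by less than 1 log2 unit. The change was 0.43 (SE 0.35, 95% interval -0.47 to 1.33, limma adjusted p = 0.991), equal to 1.35-fold. With median centring it was 0.29 and without normalisation 0.24, and with either the groups overlapped.

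The remaining Ptch1 probe sets did not give the same picture. Probe set 1439663_at read 5.12 on each heterozygote array and 4.10, 5.65 and 6.33 on the null arrays, which spread on either side of the heterozygotes (log2 change 0.23, 95% interval -1.68 to 2.15). Probe set 1450824_at was above background on heterozygote replicate 2 alone, at 3.44, and lay between 0.11 and 1.55 elsewhere.

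Smo, the membrane protein that passes the signal on, differed little. Probe set 1427049_s_at read 9.71 and 9.17 in heterozygotes and 9.31, 9.57 and 9.62 in nulls. Null arrays lay inside the heterozygote range. Its log2 change of 0.059 (95% interval -0.91 to 1.03, limma adjusted p = 0.999) turned to -0.12 with median centring and -0.16 without normalisation. Probe sets 1427048_at and 1442215_at had changes of 0.26 and -0.21 with overlapping groups. The suffix _s_at marks a probe set that can match several transcripts.

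Hhip, a membrane-bound and secreted antagonist that takes up ligand, was near background at all 4 of its probe sets. At 1421426_at the log2 signal was 3.46 and 3.04 in heterozygotes and 2.34, 1.00 and 0.20 in nulls. The null arrays were the lower ones, and heterozygote replicate 1 was the single array above background. With 1 of the heterozygote arrays measured and no null array, no fold is given (fitted log2 change -2.07, SE 0.72, limma adjusted p = 0.852).

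At Hhip 1455277_at the signal was 1.67 and 4.23 in heterozygotes and -0.50, 1.47 and 0.066 in nulls. Only heterozygote replicate 2 was above background there, a different array from the one above it at 1421426_at. The other pair, 1438083_at and 1437933_at, had changes of 1.32 and 1.51 in the opposite direction, with overlapping groups and 1 value above background between them. On the deposited scale all nulls lay above all heterozygotes at 1437933_at. With values raised to background those became -0.060 and -0.0026, and 1421426_at and 1455277_at became -0.28 and -0.53. At 1421426_at and at 1455277_at 1 heterozygote array and no null array was above background. With so little signal Hhip can be given no direction from these arrays.

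The Gli factors carry the signal into the nucleus, with Gli1 acting as an activator, Gli2 as the main activator in many mouse tissues and Gli3 largely as a repressor. Gli1, whose transcription depends on the pathway, has 1 probe set, 1449058_at. It read 6.65 and 4.80 in heterozygotes and 5.54, 3.25 and 6.27 in nulls. The arrays were spread over 3.39 log2 units with no order by genotype, the highest being heterozygote replicate 1 and the lowest null replicate 2.

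The mean of Gli1 was 5.02 ± 1.58 in nulls (SD, n = 3) and 5.72 ± 1.31 in heterozygotes (SD, n = 2). Its log2 change was -0.70 (SE 1.11, 95% interval -3.57 to 2.17, limma adjusted p = 0.999). In each pair of same-numbered arrays the null read lower, and with a block for replicate number the change was -1.325 (limma adjusted p = 0.9255). It became 0.22 without heterozygote replicate 1 and 0.19 without null replicate 2, so these 5 arrays give Gli1 no direction. The interval is wide enough to hold a change of several fold either way.

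For Gli2 the groups were apart at 1 probe set and overlapped at the other, and the annotation ties both to the same transcript accession. At 1446086_s_at the signal was 4.54 and 4.10 in heterozygotes and 5.37, 5.55 and 5.64 in nulls. All nulls lay above all heterozygotes, on the quantile, the median-centred and the deposited scale alike. The log2 change was 1.20 (SE 0.36, 95% interval 0.26 to 2.13), equal to 2.29-fold, with limma adjusted p = 0.779 and unadjusted p = 0.0216. Leaving out an array moved it between 0.98 and 1.41.

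At Gli2 1459211_at the signal was 7.02 and 5.25 in heterozygotes and 6.29, 6.35 and 6.86 in nulls. The nulls lay inside the heterozygote range, and the log2 change was 0.36 (95% interval -1.28 to 2.01). Without heterozygote replicate 2 it was -0.52. That interval holds the 1.20 of the other probe set. The difference between these probe sets, read on the same arrays, was not tested.

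Gli3 was steady at its brightest probe set, 1455154_at, with 7.85 and 7.81 in heterozygotes and 7.69, 7.19 and 7.83 in nulls. The lowest array was null replicate 2, and the log2 change of -0.26 (95% interval -1.25 to 0.73, limma adjusted p = 0.999) kept its sign in all 13 alternatives run. With median centring every null lay below every heterozygote there. Probe set 1456067_at had a change of -0.56 that rested on heterozygote replicate 2, at 5.53 against 3.95 to 4.48 elsewhere. Probe set 1450525_at was above background on null replicates 1 and 2 alone, at 3.28 and 4.76.

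Set side by side, a shared direction of ligand and target genes could not be settled from these arrays. Ihh, the ligand whose groups were apart on every scale used, was higher in 6 of 6 pairs of a null with a heterozygote array. Shh was higher in 5 of 6 at 1436869_at and in 3 of 6 at 1427571_at. Dhh was higher in 0 of 6 at 1434959_at and in 2 of 6 at 1422127_at, both near or below background. Among the targets Ptch1 (1428853_at) was higher in 6 of 6 pairs, the same way as Ihh but on the quantile scale alone. Its other probe sets were higher in 4 of 6 (1439663_at) and 3 of 6 (1450824_at), and Gli1 in 2 of 6. Hhip was higher in 0 of 6 pairs at 1421426_at and at 1455277_at, in 4 of 6 at 1438083_at and in 5 of 6 at 1437933_at, nearly all of them values below background. At Hhip 1421426_at and 1455277_at the nulls lay below the heterozygotes on the quantile, the median-centred and the deposited scale alike. That is the opposite way to Ihh. Relative to each gene's mean over the arrays, Ihh was at 1.09, 1.35 and 1.40 on null replicates 1 to 3. On the same arrays Ptch1 was at 0.089, 0.24 and 0.19, and Gli1 at 0.24, -2.05 and 0.97. Null replicate 2, among the highest for Ihh, was thus the lowest for Gli1. On heterozygote replicate 2, lowest for Ihh and Shh at -2.92 and -2.74, Gli1 was at -0.50 and Ptch1 at -0.076. With 5 arrays no correlation between ligand and target is given.

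**Figure D3:**
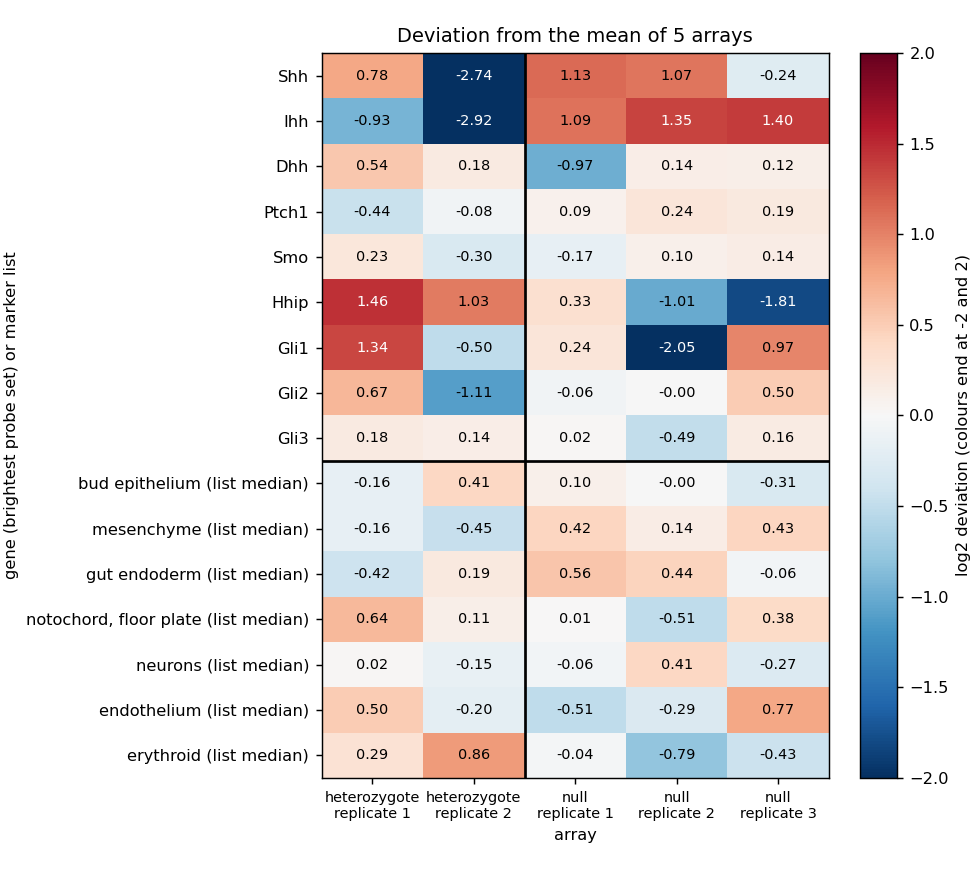
Log2 deviation of each array from the mean of the 5 arrays, for the brightest probe set of each of the 9 Hedgehog genes (upper block) and for the median over 7 lists of marker genes (lower block). Columns are arrays, with the 2 heterozygotes left of the vertical line, and red is above and blue below the mean. Ihh runs from -0.93 and -2.92 in heterozygotes to 1.09, 1.35 and 1.40 in nulls, whereas Gli1 is positive or negative in both genotypes.

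Genes of other cell types that a bud could hold are given beside these values, and their part in them was not tested. In pooled buds fewer cells of a type and less RNA per cell cannot be told apart. Of 12 measured gut endoderm genes 8 had a higher signal in the nulls, and the median of the list was a log2 change of 0.56. Their summed linear signal was 231 and 223 in heterozygotes and ran from 259 to 367 in nulls. Summed signals here and below are deposited values without normalisation, so they also follow the scale of each array. The median deposited intensity was 17.5 and 14.4 in heterozygotes and 16.4, 13.7 and 16.3 in nulls, in order of replicate. Within the gut endoderm list Cdx1, Fabp1, Cdh17 and Tff2 were above background on no array. At 2 of the 12, Sox21 and Apoa1, every null array lay above every heterozygote array, and at 0 below. Over all genes at their brightest probe sets 1786 of 18194 lay above in this way. Sox21, a transcription factor of foregut epithelium, read 3.10 and 2.19 in heterozygotes and 4.71, 4.96 and 5.03 in nulls (log2 change 2.26, limma adjusted p = 0.434). The 4 lower genes included Vil1, a gene of gut epithelium, at -0.86.

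Mesenchyme genes, the usual responders to Hedgehog ligands, were higher in nulls at 19 of 24, with a median of 0.55. At 9 of the 24 every null array lay above every heterozygote array, and at 1 below. Over all genes at their brightest probe sets 1786 of 18194 lay above in this way. Limma called 0 of the 24 in either fit. Their summed signal was 4481 and 3460 in heterozygotes and 3607 to 5141 in nulls. It was lowest on heterozygote replicate 2 and null replicate 2, the arrays of lowest deposited median. Relative to each gene's mean the list's median was -0.16 and -0.45 in heterozygotes and 0.42, 0.14 and 0.43 in nulls, and Thy1 and Twist1 were above background on no array. Of the notochord and floor plate list, a possible source of Shh, 6 of 9 genes were measured and 2 were higher in nulls. Its summed signal was 325 and 483 in heterozygotes and 103 to 211 in nulls. That sum mostly follows Spon1, the only gene of the list above background on all arrays. Spon1 read 7.92 and 8.87 in heterozygotes and 7.07, 6.90 and 6.47 in nulls (log2 change -1.58, limma adjusted p = 0.761). No other gene of the list read above 4.58, so the sum says little of the tissue as a whole. Epithelial bud genes had a median change of -0.25, with 6 of 18 higher. At 6 of the 18, Ptf1a itself among them, every null array lay below every heterozygote array, and at 2 above. Over all genes at their brightest probe sets 10.1% lay below in this way.

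Erythroid genes were lower in nulls at 8 of 8 measured, with a median of -1.05. At 5 of the 8 every null array lay below every heterozygote array, against 10.1% of all genes at their brightest probe sets, and limma called 0 of the 8 in either fit. Their summed signal was 11460 and 11829 in heterozygotes and 6327 to 9354 in nulls, 6 of the 8 were above background on all arrays, and the probe set of Hba-a1 was above it on none. The embryonic globin gene Hbb-bh1 read 11.59 and 12.08 in heterozygotes and 11.29, 10.83 and 10.96 in nulls. Of 10 neuron and neural tube genes 5 were higher and 5 lower (median -0.030), and Sox1 was above background on no array. Their summed signal was 469 and 474 in heterozygotes and 360 to 506 in nulls. Nkx2-2, which also stands among the reported targets below, was the brightest of them on every array, with Pax6 and Dcx next. The sum rests mostly on these genes and is no measure of neurons alone. Endothelium genes were higher in nulls at 4 of 7 (median 0.12), with a summed signal of 309.9 and 175 in heterozygotes and 156 to 346 in nulls.

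Genes that act around the core pathway were described from lists at the brightest probe set of each gene, and limma called 0 of them in the untrended or the trended fit. An unadjusted p under 0.05 was found for 0, 0 and 2 of the 11, 24 and 16 genes of the lists below without the trend, and for 3, 1 and 2 with it. Over the brightest probe sets of all genes 0% were called in the untrended and 0.033% in the trended fit, 4.47% had such an unadjusted p in each fit, and the median log2 change was -0.012. Among 11 genes of ligand release and co-receptors 3 were higher and 8 lower in nulls, with a median of -0.45. Gas1, a co-receptor anchored at the cell surface that aids ligand binding, read 7.03 and 7.13 in heterozygotes and 6.49, 5.11 and 5.93 in nulls. All nulls were lower, by 1.24 on the log2 scale (limma adjusted p = 0.937). Gpc3, a glypican that competes with Ptch1 for ligand, read 7.90 and 7.91 against 7.32, 7.39 and 7.06, and was also lower on every null array (log2 change -0.65, limma adjusted p = 0.979).

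On the other side of the same list, Scube3, of a family that helps release the ligand, read 4.87 and 2.66 in heterozygotes and 5.46, 5.41 and 5.68 in nulls. It was higher on every null array, by 1.75 (limma adjusted p = 0.934). Boc, a co-receptor, had a log2 change of 0.76 with separated groups (limma adjusted p = 0.986). The co-receptor Cdon and the ligand exporter Disp1 had changes of -0.095 and -0.34 with overlapping groups, chosen after their values were seen.

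Signal transduction and cilium genes were bright, with 23 of 24 above background on all arrays, and 15 were higher and 9 lower in nulls (median 0.12). Lowest in p among those higher were Evc, a cilium protein that binds Smo, and the kinase gene Csnk1a1, at 0.55 and 0.45. Among those lower they were the protein kinase A subunit gene Prkaca and the kinase gene Gsk3b, at -0.69 and -0.55. Limma adjusted p was 0.979 or more for these 4. Sufu, the inhibitor that holds Gli proteins in the cytoplasm, had a change of 0.42.

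Of 16 reported targets 10 were higher and 6 lower in nulls, with a median of 0.30. Osr1 and Nkx3-2, transcription factors of gut mesenchyme, had changes of 1.24 and 2.62, with each gene above background on the 3 null arrays alone (limma adjusted p = 0.832 and 0.904). Those 2 genes also stand in the mesenchyme list, as do the targets Foxf1 and Barx1, with changes of 0.65 and 0.36. The targets Foxa2 and Nkx2-2, at -0.13 and -0.44, also stand in the bud epithelium and the neuron list. Ccnd1, a cyclin of the G1 phase, read 10.06 and 10.09 in heterozygotes and 9.54, 9.58 and 9.38 in nulls (log2 change -0.57, limma adjusted p = 0.991). Bmp4, a growth factor gene of gut mesenchyme, had a change of -2.04 that rested on null replicate 2, at 0.060 and below background against 3.93 to 5.23 elsewhere.

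**Figure D4:**
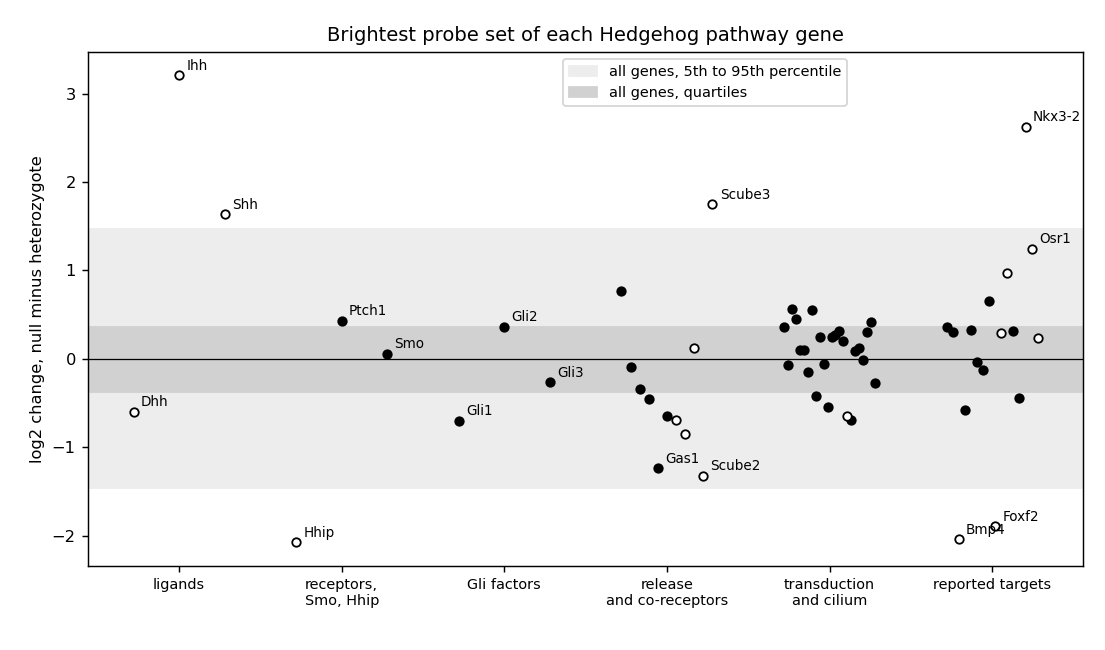
Log2 change (null minus heterozygote, vertical axis) at the brightest probe set of each Hedgehog pathway gene, grouped by role. Filled points are above background on all 5 arrays and open points are not, the dark band lies between the quartiles of all genes (-0.38 to 0.36) and the light band their 5th to 95th percentiles (-1.46 to 1.47). Points outside the light band (Ihh, Shh, Hhip, Scube3, Nkx3-2, Bmp4 and Foxf2) are all open, so each was at or below background on at least 1 array.

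The profiles most like that of a member were sought over the 5 arrays among probe sets above background on all of them, by the root mean square difference of mean-centred log2 values. For Ptch1 1428853_at they were Iars2, Pitpnb and Bcl2l2, at 0.037, 0.045 and 0.045, against a root mean square of 0.25 for Ptch1 itself. For Shh 1436869_at they were Dtna, Kdm5c and Psma3, at 0.61, 0.62 and 0.65 against 1.46. With 5 arrays and 18147 candidate probe sets for Ptch1, close profiles are easily found, and nothing is read from these names.

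Promoter windows, from 250 bases before to 50 after a gene's start, were at hand for 7 of the 9 genes from RefSeq on GRCm38.p6. The windows of Ihh, the ligand whose groups were apart on every scale used, and of the feedback targets Ptch1 and Hhip are printed. They run 5′ to 3′ on the gene's own strand. Capitals mark CCACCC or its reverse complement, the core of the sequence bound by Gli factors. They are Ihh at chr1:74951623-74951922, Ptch1 at chr13:63565686-63565985 and Hhip at chr8:80057959-80058258, each on the minus strand.
Ihh: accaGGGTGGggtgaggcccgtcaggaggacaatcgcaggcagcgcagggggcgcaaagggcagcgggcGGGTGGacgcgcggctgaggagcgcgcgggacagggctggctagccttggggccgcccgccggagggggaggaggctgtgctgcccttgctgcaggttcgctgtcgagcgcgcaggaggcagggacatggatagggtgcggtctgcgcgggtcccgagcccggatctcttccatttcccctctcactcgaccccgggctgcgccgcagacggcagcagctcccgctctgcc
Ptch1: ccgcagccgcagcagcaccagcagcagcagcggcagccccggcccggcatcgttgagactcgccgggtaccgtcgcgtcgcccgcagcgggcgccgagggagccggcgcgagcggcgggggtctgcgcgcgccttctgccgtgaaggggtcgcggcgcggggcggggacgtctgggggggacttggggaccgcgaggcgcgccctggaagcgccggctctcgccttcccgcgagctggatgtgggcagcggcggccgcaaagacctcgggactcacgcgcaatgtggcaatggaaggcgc
Hhip: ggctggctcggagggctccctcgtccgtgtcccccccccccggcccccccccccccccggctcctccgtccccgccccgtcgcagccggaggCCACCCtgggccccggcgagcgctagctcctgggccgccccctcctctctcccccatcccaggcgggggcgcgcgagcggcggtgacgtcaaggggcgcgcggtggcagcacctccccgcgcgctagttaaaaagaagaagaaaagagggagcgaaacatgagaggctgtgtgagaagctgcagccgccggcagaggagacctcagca

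The full Gli consensus GACCACCCA, searched on both strands, was in 0 of the 7 windows and in 0.253% of all 32851 promoter windows. The core CCACCC, which lies within the consensus, was in 6 of the 7, the exception being Ptch1, and in 31.5% of all windows. Ihh holds it at 246 and 181 bases before the start and Hhip at 158. The E-box CANNTG, the part of the Ptf1a site bound by helix-loop-helix proteins, was in the windows of Dhh and Gli3 and in 72.3% of all windows. The sequence TTCCCA, bound by the Ptf1a partner RBPJ, was in 0 of the 7 and in 25.6% of all. These are matches of letters in a short window. G and C made up 61.7% to 76.3% of the 7 windows, against a median of 52.7% over all windows.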

How the data were processed

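The authors deposited a linear signal intensity for each probe set and array. Per the submitters' processing notes GCOS and RMA were used. Their versions, their roles and the background step are not given in the sources used here. Log2 was taken with no offset, followed by quantile normalisation over all 45101 probe sets. The 64 control probe sets were then left out. Limma 3.58.1 in R 4.3.3 (lmFit, eBayes, genotype as the sole term, two-sided, Benjamini-Hochberg over 45037 probe sets) gave the untrended fit, and eBayes with trend and robust options the trended fit. Both were tested on simulated data. With 2 against 3 arrays an exact permutation test cannot go below 0.1, so none was run. Symbols are those of the array's platform annotation, and list genes were matched by gene ID (138 of 146 measured). Every member probe set is named; from each wider list the 2 genes of lowest p in each direction are named, and other names were chosen after their values were seen. The members and lists were chosen with earlier results of these data known. Alternatives covered variance model, scaling, offset, dim probe sets, a block for replicate number and leaving out each array.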

Additional observations from a re-analysis of the deposited data

How the results depend on the processing

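No Hedgehog probe set was called in any of the 13 alternatives, where the lowest adjusted p was 0.378. Over all probe sets the trended fit called 8 and, limited to probe sets above background on at least 2 arrays (an alternative added after seeing the data), 10, against 0 in the untrended fit and in each other alternative, leaving out an array included. Ihh, Gli2 1446086_s_at, Ptch1 1428853_at, Gli3 1455154_at, Dhh 1434959_at and Hhip 1421426_at and 1455277_at kept their sign in all alternatives that could be run for them. The other 14 probe sets turned sign at least once. With median centring and without normalisation Smo 1427049_s_at had -0.12 and -0.16. With values raised to background Hhip 1438083_at had -0.060 and Hhip 1437933_at -0.0026. With the replicate block, Ptch1 1439663_at had -0.25 and Smo 1427049_s_at -5.49e-05. That block called 0 probe sets, in all and among the 21, and null replicate 3, which has no partner, adds nothing to its estimate. In the labels same-numbered arrays share only a number. The replicate 1 minus 2 differences of the genotypes correlated at -0.0049 across probe sets. The median deposited intensity, however, was higher on both replicates 1 (17.5 and 16.4) than on both replicates 2 (14.4 and 13.7). Whether same-numbered arrays shared a batch is not stated and was not tested. Leaving out 1 array at a time, log2 changes ran from -0.12 to 3.40 for Shh 1436869_at, -2.27 to 0.39 for Shh 1427571_at, -2.49 to 0.29 for Dhh 1422127_at and -0.25 to 0.86 for Ptch1 1439663_at. They ran from -2.37 to 0.96 for Ptch1 1450824_at, -0.21 to 0.33 for Smo 1427049_s_at, -0.19 to 0.70 for Smo 1427048_at and -0.59 to 0.20 for Smo 1442215_at. They ran from -0.11 to 2.75 for Hhip 1438083_at, -1.62 to 0.22 for Gli1, -0.52 to 1.25 for Gli2 1459211_at, -1.30 to 0.18 for Gli3 1456067_at and -0.12 to 2.02 for Gli3 1450525_at. The cause of these turns was not tested. They were seen at probe sets above background on all arrays, such as those of Smo, as well as at dim ones. Signal over background limits the ligands and Hhip, whose log2 values scatter where intensities approach 0.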

Other observations

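The following genes were picked after their values were seen. Null replicate 2 was the lowest of the 5 arrays for Gli1, and several genes of gut mesenchyme were lowest on the same array. Foxf2, a forkhead factor induced by Hedgehog signal in gut mesenchyme, was at -1.76 there against 2.97 to 4.32 on the other arrays. Bmp4 was at 0.060, the growth factor receptor gene Pdgfrb at -2.05 against 1.93 to 4.17 elsewhere, and Tcf21, a mesenchymal transcription factor, at 2.14 against 3.47 to 5.39. The values of Foxf2, Bmp4, Pdgfrb and Tcf21 on null replicate 2 lay below its background level of 3.17, so their depth is not measured. Gli1, at 3.25, was just above that level. Foxf1, at 4.82, and Nkx3-2, at 3.50, did not share that low value, and the median of the mesenchyme list on this array was 0.14 relative to each gene's mean. No test was made of a single array.

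Endothelium genes ran high on heterozygote replicate 1 and null replicate 3, with list medians of 0.50 and 0.77 relative to each gene's mean, and lay at -0.20, -0.51 and -0.29 on heterozygote replicate 2 and null replicates 1 and 2. Gli1 was also highest on those 2 arrays, at 1.34 and 0.97, as was Gli2 1459211_at, at 0.67 and 0.50. The order cuts across genotype.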
